A study of Mus musculus with 12 samples.

Results

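Bone marrow-derived macrophages (BMDMs) are macrophages grown in culture from marrow progenitors, and they are a standard model of the cells that fill atherosclerotic plaques. Wnt3a is a secreted protein that binds Frizzled receptors and their LRP co-receptors on the cell surface. In the canonical pathway this stabilizes β-catenin, which enters the nucleus and, together with TCF/LEF factors, drives target genes such as *Axin2*, *Lef1*, *Myc* and *Ccnd1*. Macrophages are also the cells that sense microbes and interferons, present antigen, and take up and export cholesterol.

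The results below compare 3 libraries derived from Wnt3a-treated BMDMs with the 3 untreated libraries of the same mice. The series holds 12 RNA-seq samples, from female C57Bl/6J mice, with each of 3 mice giving 1 culture to each of 4 groups. Cultures of whole marrow were grown with 10 ng/mL macrophage colony-stimulating factor and used on day 7. They were left untreated or were exposed for 16 hr to 100 ng/mL recombinant Wnt3a, to 100 pg/mL IL-4 or to both. All groups thus share strain, sex, growth factor and culture day, and the labels give no age.

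The deposited Wnt3a and Wnt3a+IL-4 columns are nested. In each mouse, every one of the 48526 genes had a Wnt3a count between 1 and 2 times its Wnt3a+IL-4 count, with 0 genes outside. Between columns of different mice, 6681 to 8625 genes lay outside these bounds. The difference of a mouse was therefore taken as its Wnt3a column minus its Wnt3a+IL-4 column, gene by gene, and the remainder as the Wnt3a+IL-4 column minus that difference. By the column labels, both come from cells that received Wnt3a. The labels do not prove which culture the difference came from, with Wnt3a alone or with Wnt3a and IL-4, and the measured values were not used to settle the question.

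Of the 48526 genes, 21606 had a count in the 6 libraries compared and 12421 passed the filter of at least 10 counts in at least 3 of the 12 libraries. The 3 difference libraries held 14171994 to 17453377 counts, the untreated libraries 15381184 to 17031873 and the remainder libraries 15707213 to 16998867, so depth was similar. Levels are given as CPM, the count as a share of the TMM-scaled library total, in the order mouse 1, mouse 2 and mouse 3. Where fold changes are called, the test is edgeR's quasi-likelihood test with the mouse as a replicate block and a Benjamini-Hochberg adjusted p under 0.05 over all 12421 genes. In bulk RNA, a change in the share of 1 cell type and a change in the RNA of each cell cannot be told apart. Macrophage genes made up 51970 to 59220 CPM in the untreated and 59050 to 69350 CPM in the difference libraries, summed over 11 markers.

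Wnt3a-derived libraries differed from untreated macrophages in 2659 of the 12421 genes (21.4%). Of these, 1350 were higher (10.9% of the genes tested) and 1309 were lower (10.5%). The median absolute log2 fold change was 0.664 among the higher genes and 0.693 among the lower genes, and most changes were modest. In the upward direction, 421 genes changed at least 2-fold, 57 at least 8-fold and 26 at least 16-fold. In the downward direction these counts were 399, 22 and 5, so the tail of very large changes lay mostly on the side of increase. Direction was shared by all 3 mice in 1348 of the 1350 higher and 1308 of the 1309 lower genes, and the groups did not overlap in 1327 and 1273 of them. Over all 12421 genes tested, every difference library lay above the untreated libraries in 2427 and below them in 2440. Called genes were picked by these same values, so their lack of overlap is no separate result. Of the called genes whose levels are given by mouse below, the groups overlapped in *Ptgs1* only. Genes called higher took up 15.8% ± 0.15 of all counts in untreated libraries and 24.3% ± 0.45 in the difference (SD, n = 3). Genes called lower went from 14.8% ± 0.43 to 9.09% ± 0.40 (SD, n = 3). With total counts in place of TMM scaling the split moved to 1048 higher and 2023 lower, and the median of all genes moved from -0.01 to -0.10 on the log2 scale. The count without mouse 3 was 1049 genes, against 1818 without mouse 1 and 1988 without mouse 2.

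**Figure D1:**
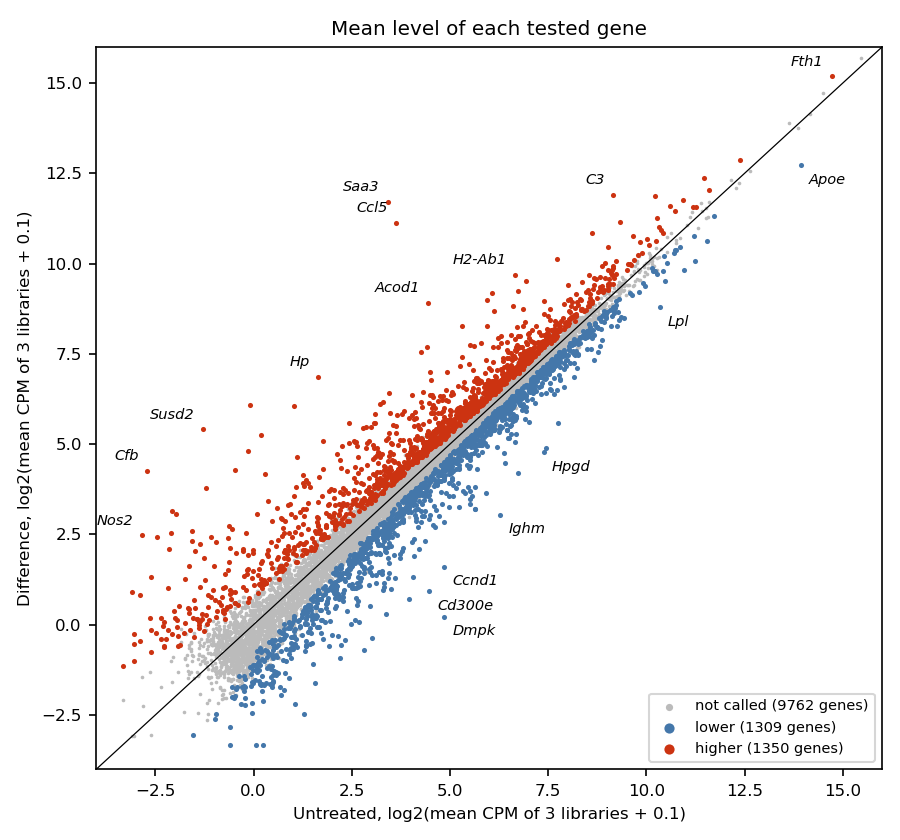
Each point is 1 of the 12421 tested genes, with its mean level over the 3 untreated libraries on the x axis and over the 3 difference libraries on the y axis, both as log2(CPM + 0.1). Red points are the 1350 genes called higher, blue points the 1309 called lower and grey points were not called; the line marks equal levels, and *Saa3*, *Ccl5*, *Cfb* and *Susd2* stand farthest above it.

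The gene with the highest fold change among well-expressed genes was *Saa3* (ENSMUSG00000040026, chromosome 7 of mm10 from 46711998 to 46715700), which encodes an acute-phase serum amyloid made by macrophages. Its level was 11.7, 11.6 and 8.65 CPM untreated and 2309, 3929 and 3823 CPM in the difference (log2 fold change 8.25, standard error 0.32, adjusted p = 1.6e-08 from edgeR). *Ccl5* (ENSMUSG00000035042, chromosome 11 of mm10 from 83525778 to 83530518), a chemokine that attracts T cells and monocytes, had 13, 13.2 and 10.4 CPM untreated and 2257, 2371 and 2086 CPM in the difference (log2 fold change 7.53, standard error 0.13, adjusted p = 1.3e-11 from edgeR). The groups lay far apart for both genes. Scaled by the merged length of all annotated exons of a gene (TPM), *Ccl5* reached 6956 and *Saa3* 3816 in the difference. This length can exceed that of any single transcript, and the order of the genes in TPM, the reverse of that in CPM, depends on it.

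*Cfb* (ENSMUSG00000090231, chromosome 17 of mm10 from 34856374 to 34862518), the factor B of the alternative complement pathway, was near the floor of detection in untreated cells with 3, 0 and 0 counts and had 243, 369 and 287 counts in the difference. The ratio of its summed levels was 315, with a 95% counting interval from 108 to 1530, and 79.5% of its exon bases also lie in another annotated gene on the same strand, so its reads cannot be fully assigned. *Susd2*, a membrane protein with sushi domains, had 0.107, 0.514 and 0.313 CPM untreated and 43.1, 53.9 and 31.02 CPM in the difference (log2 fold change 7.11, standard error 0.27, adjusted p = 1.3e-08 from edgeR). *Ly6i*, a member of the Ly6 family of surface proteins, had 1.02, 0.643 and 0.877 CPM untreated and 49.4, 81.8 and 72.4 CPM in the difference (log2 fold change 6.27, standard error 0.24, adjusted p = 1.3e-08 from edgeR). In all of these genes the lowest difference library was above the highest untreated library.

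The 15 most increased and 15 most decreased genes were taken among genes with a mean of 8 CPM or more in 1 group and the same direction in every mouse. The other genes of the 15 most increased fall into a few kinds. Secreted acute-phase proteins and chemokines were the largest, with *Orm1* (5.59), *Hp* (5.25), *Cxcl3* (5.91) and *Ccl22* (5.25) as log2 fold changes. *Hp*, which encodes haptoglobin, the scavenger of free hemoglobin, had 3.12, 3.599 and 2.38 CPM untreated and 89.04, 141 and 120.4 CPM in the difference. *Vcan* (5.07) and *Igfbp7* (5.03) encode an extracellular matrix proteoglycan and a secreted binding protein of insulin-like growth factors. *Ly75* (5.13) is the endocytic receptor DEC-205 and *H2-M2* (5.15) a nonclassical MHC class I gene. *Vcan* had 3.33, 1.03 and 1.504 CPM untreated and 98.7, 55.5 and 47 CPM in the difference, so it varied among the difference libraries, highest in mouse 1, but did not overlap. *Acpp* (3.96) encodes an acid phosphatase. *Acod1*, which makes the antimicrobial metabolite itaconate from a citric acid cycle intermediate, had 27.01, 17.7 and 20.5 CPM untreated and 611, 432 and 404 CPM in the difference (log2 fold change 4.46, standard error 0.13, adjusted p = 2.3e-09 from edgeR). Of the transcript stretches of *Orm1* of 50 bases, 20.4% also occur in other genes, most often *Orm2*, so these neighbours are only partly separable.

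Among abundant genes the increases were smaller in fold and larger in reads. *C3*, the central component of complement, had 506, 505 and 693 CPM untreated and 3570, 4372 and 3554 CPM in the difference (log2 fold change 2.75, standard error 0.16, adjusted p = 3.4e-07 from edgeR). *Ly6e* had 1229, 1116 and 1252 CPM untreated and 4004, 3715 and 3565 CPM in the difference and *Lgals3bp* 602, 647 and 693 CPM untreated and 2413, 2351 and 2111 CPM in the difference, and both encode proteins that rise in interferon responses. *Fth1*, the heavy chain of the iron store ferritin, was the gene with the largest gain in CPM, from 24630, 28450 and 27900 to 37030, 36980 and 38620 CPM, although its log2 fold change was only 0.48.

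The steepest decreases were in genes of moderate level. *Dmpk* (ENSMUSG00000030409, chromosome 7 of mm10 from 19083849 to 19093821), which encodes the myotonic dystrophy protein kinase, had 28.03, 25.3 and 32.8 CPM untreated and 1.26, 1.22 and 0.727 CPM in the difference (log2 fold change -4.69, standard error 0.39, adjusted p = 4.6e-06 from edgeR), and its chromosomal neighbour *Dmwd* also fell (-2.79). *Cd300e* (ENSMUSG00000048498, chromosome 11 of mm10 from 115051917 to 115062177), an activating receptor of myeloid cells, had 19.1, 22.8 and 24.4 CPM untreated and 2.35, 2.07 and 1.02 CPM in the difference (log2 fold change -3.59, standard error 0.24, adjusted p = 8.6e-07 from edgeR). *Ighm*, the immunoglobulin heavy chain μ, had 77.01, 80.98 and 73.1 CPM untreated and 4.97, 8.85 and 10.7 CPM in the difference (log2 fold change -3.28, standard error 0.19, adjusted p = 2.3e-07 from edgeR). The defining B cell gene *Pax5* was at 0 counts in all 6 libraries, and the summed level of 10 B lineage markers went from between 76.8 and 85.3 CPM to between 8.41 and 14.02 CPM, most of it *Ighm*. The part of B lineage cells in this change was not tested.

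*Hpgd*, the enzyme that inactivates prostaglandin E2, had 184, 157 and 159 CPM untreated and 20.2, 32.4 and 29.9 CPM in the difference (log2 fold change -2.63, standard error 0.22, adjusted p = 4.6e-06 from edgeR), a level 6.19-fold lower. *Id3*, a dominant-negative partner of helix-loop-helix factors, had 178, 195 and 154 CPM untreated and 33.6, 28.8 and 26.6 CPM in the difference. *Cd83*, a surface marker of activated antigen-presenting cells, had 100.3, 111 and 107 CPM untreated and 14.1, 19.6 and 20.8 CPM in the difference. All 3 genes were expressed above 90 CPM in each untreated library and below 40 CPM in each difference library. The remaining genes of the 15 most decreased were *Ets1* (-3.36), a transcription factor, *Ccnd1* (-3.25), *Atp2b4* (-3.17), a calcium pump of the plasma membrane, *Nr4a1* (-2.61), *Mamdc2* (-2.47), *Ccl4* (-2.43), *Egr1* (-2.40) and *Myc* (-2.36), as log2 fold changes.

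Some of the most abundant macrophage transcripts fell as well. *Apoe*, the apolipoprotein through which macrophages export cholesterol, went from 11560, 18060 and 17260 to 3688, 8285 and 8288 CPM (log2 fold change -1.25, standard error 0.17, adjusted p = 2.5e-04 from edgeR). *Lpl* (-1.54), the lipoprotein lipase, *Lrp1* (-1.16), an endocytic receptor for apolipoprotein E and protease complexes, *Selenop* (-1.16), a selenium transport protein, and *Igfbp4* (-1.13) completed the 5 genes with the most reads among those that fell at least 2-fold.

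**Figure D2:**
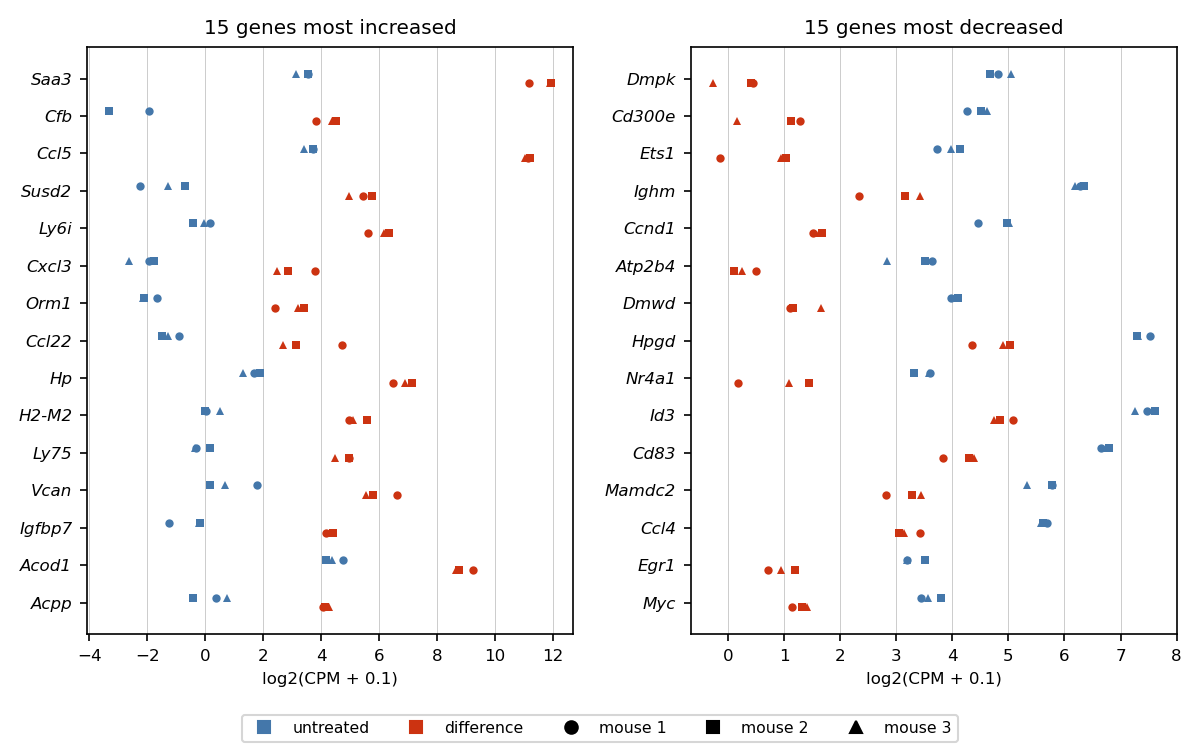
Level of the 15 most increased (left) and 15 most decreased (right) genes in each library, on the x axis as log2(CPM + 0.1), with untreated libraries in blue, difference libraries in red and a marker shape for each mouse. Within a gene the 3 libraries of a group lie closer to each other than to the other group, and blue and red points do not overlap in any of the 30 genes.

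Interferon-stimulated genes are a set of antiviral effectors and sensors that type I interferons switch on through a factor containing STAT2 and IRF9. Of 30 such genes, all were tested, 27 rose, 0 fell and 3 were not called, with a median log2 fold change of 1.36. No gene was called different from the remainder, and without the remainder of mouse 2, 3 were higher and 1 was lower in the difference. *Irf7*, the transcription factor that amplifies interferon production, had 76.5, 53.99 and 71.4 CPM untreated and 714, 564 and 474 CPM in the difference (log2 fold change 3.11, standard error 0.16, adjusted p = 1.4e-07 from edgeR). Sensors of nucleic acid in the cytoplasm rose, among them *Zbp1* (2.51), *Ddx58* (1.36) (RIG-I), *Ifih1* (1.17) (MDA5) and *Dhx58* (1.36). The oligoadenylate synthetases *Oas3* (1.38) and *Oas1a* (1.13), which detect double-stranded RNA, and the related *Oasl2* (2.21) and *Oasl1* (2.17) rose too. *Isg15*, a ubiquitin-like modifier, had 22.9, 12.8 and 15.3 CPM untreated and 74.9, 55.1 and 48.6 CPM in the difference, and its protease *Usp18* (1.82) rose alongside. *Ifit1*, a protein that binds foreign RNA ends, had 30.7, 16.4 and 24.1 CPM untreated and 104, 69 and 62.4 CPM in the difference. *Mx1* (0.58), *Mx2* (0.61) and *Rsad2* (0.47) were the genes that did not pass.

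The interferon genes also differed between mice. Mouse 1 had the highest level of the 3 mice in 29 of the 30 genes in the difference and in 24 of the 30 in untreated cells. Without mouse 1, 27 of the 30 genes were called higher, without mouse 2, 26, and without mouse 3, 22. The genes of the signal itself were mixed. *Stat2* (1.26) and *Irf9* (0.45) rose, whereas the receptor genes *Ifnar1* (0.12) and *Ifnar2* (-1.9e-04) were not called.

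The guanylate-binding proteins and immunity-related GTPases coat the vacuoles of intracellular microbes and are classic targets of interferon-γ. Of 13 tested, 11 rose and 0 fell, with a median of 1.30. *Gbp2* had 20.03, 14.2 and 14.6 CPM untreated and 98.4, 80.2 and 68.8 CPM in the difference (log2 fold change 2.34, standard error 0.11, adjusted p = 6.2e-08 from edgeR), and *Irgm1*, a regulator of autophagy, had 93.02, 74.9 and 92.5 CPM untreated and 227, 187 and 175 CPM in the difference. *Gbp3* (2.03), *Gbp7* (1.97) and *Igtp* (0.88) rose, while *Gbp8* (0.68) and *Iigp1* (-0.003) did not pass. Of the others, *Gbp4* (2.76), *Gbp5* (1.42), *Tgtp2* (1.30), *Gbp9* (1.18) and *Irgm2* (0.81) rose. *Gbp6* had the highest fold change (5.29), but 70.7% of its transcript stretches also occur in other genes, as do 86.6% of those of *Tgtp2*, so neither can be fully assigned.

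The sequences before the starts of *Saa3*, *Isg15*, *Ifit1* and *Gbp7* are shown. These genes were picked as examples that hold the same motif, so their sharing it is no separate result. *Saa3* is in neither the interferon nor the GTPase list. In the 250 bases before the start of each gene (RefSeq starts on GRCm38.p6), the interferon-stimulated response element was searched as 2 GAAA repeats with any 2 bases between them, on both strands. It was present in 329 (3.47%) of the 9480 tested genes with a window, in 8.18% of those called higher, 2.04% of those called lower and 2.98% of those not called. All 8 called genes of the guanylate-binding and immunity-related GTPase list with a window held it (100%), and 8 of 19 (42.1%) of the called interferon-stimulated genes. Capitals mark the matches in the windows of *Saa3* (chr7:46715677-46715926, minus strand), *Isg15* (chr4:156200819-156201068, minus strand), *Ifit1* (chr19:34640639-34640888, plus strand) and *Gbp7* (chr3:142530086-142530335, plus strand), each written 5′ to 3′. A match on the other strand reads as 2 TTTC repeats.
Saa3: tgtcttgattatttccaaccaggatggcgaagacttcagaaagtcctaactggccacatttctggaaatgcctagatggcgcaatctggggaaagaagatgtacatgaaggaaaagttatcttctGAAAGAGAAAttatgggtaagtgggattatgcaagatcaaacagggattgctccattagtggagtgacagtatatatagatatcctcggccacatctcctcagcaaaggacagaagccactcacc
Isg15: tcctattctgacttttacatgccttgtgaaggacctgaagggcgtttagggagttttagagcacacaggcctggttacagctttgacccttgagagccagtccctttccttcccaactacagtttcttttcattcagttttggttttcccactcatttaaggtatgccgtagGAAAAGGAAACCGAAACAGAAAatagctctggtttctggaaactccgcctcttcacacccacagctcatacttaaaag
Ifit1: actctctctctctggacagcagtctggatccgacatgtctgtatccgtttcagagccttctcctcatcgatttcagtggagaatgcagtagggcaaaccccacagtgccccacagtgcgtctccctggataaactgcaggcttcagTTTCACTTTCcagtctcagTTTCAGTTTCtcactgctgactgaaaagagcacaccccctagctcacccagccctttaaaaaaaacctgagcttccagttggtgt
Gbp7: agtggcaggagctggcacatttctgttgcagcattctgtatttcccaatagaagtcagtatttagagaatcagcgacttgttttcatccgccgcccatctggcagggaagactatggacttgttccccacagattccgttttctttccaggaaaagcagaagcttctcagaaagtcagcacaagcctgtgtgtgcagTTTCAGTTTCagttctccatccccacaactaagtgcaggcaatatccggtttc

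In *Isg15* 3 overlapping matches form a run of capitals that begins 78 bases before the start, and *Ifit1* holds 2 separate matches beginning 104 and 85 bases before it. The match of *Gbp7* begins 53 bases and that of *Saa3* 125 bases before the start. These distances are counted from RefSeq starts. The ends of the *Isg15*, *Ifit1* and *Gbp7* windows also occur in GENCODE transcripts of these genes, and the *Saa3* window overlaps its GENCODE gene. Part of each of these windows is thus transcribed by that annotation. Matches overlapped those of the STAT dimer motif TTCNNNGAA in 9 of 12098 windows and those of the NF-κB motif, GGG and TTTCC with any 2 bases between them, in 1. The STAT motif was in 7.05% of tested genes and in 8.93% of the higher and 6.24% of the lower genes. The NF-κB motif was in 1.78%, 2.44% and 1.43%. The TCF/LEF motif ATCAAAG was in 2.71% of tested genes, in 3.85% of the higher and in 2.56% of the lower genes, and in 0 of 3 called Wnt target genes with a window. The cyclic AMP response element TGACGTCA was in 3.12% of tested genes, in 1.69% of the higher and in 2.76% of the lower genes. These letters describe the windows only and are not evidence of binding.

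MHC class II molecules present antigen to helper T cells, under the control of the coactivator CIITA. Of 12 genes, 11 rose and 0 fell, with a median of 1.69. *H2-Ab1*, the class II β chain, had 105, 100.8 and 96.3 CPM untreated and 681, 979 and 829 CPM in the difference (log2 fold change 3.03, standard error 0.13, adjusted p = 2.8e-08 from edgeR). *Cd74*, the invariant chain, had 411, 369.9 and 392 CPM untreated and 1568, 2074 and 1889 CPM in the difference, and *Ciita* itself 15.4, 13.2 and 12.7 CPM untreated and 47.98, 68.5 and 54.8 CPM in the difference. In these genes mouse 1 was the lowest of the difference libraries, the reverse of its place among the interferon genes. *H2-Aa* (2.51), *H2-Eb1* (2.57) and the peptide loader *H2-DMa* (1.33) also rose, as did *H2-Oa* (2.34), *H2-DMb1* (1.26), *Ifi30* (1.06), *H2-Ob* (0.84) and *Ctss* (0.49), and *H2-DMb2* (0.08) was not called. The call of *H2-Ob* was not kept under 15 of the other settings tried. Without mouse 1, 10 of the 12 genes were called higher, and without mouse 2 or without mouse 3, 9. The rise was smaller than in the remainder for 6 of the 12 genes, *H2-Ab1* among them (-0.53 on the log2 scale, adjusted p = 0.026 from edgeR).

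MHC class I presentation rose by less. Of 15 genes 14 rose and 0 fell, with a median of 0.83. They include the peptide transporter subunits *Tap1* (1.03) and *Tap2* (0.48), their bridge to class I *Tapbp* (1.07), the light chain *B2m* (0.90), the heavy chain *H2-K1* (0.83), the nonclassical *H2-T23* (0.90), the trimming peptidase *Erap1* (1.04), the activator *Nlrc5* (0.83) and the immunoproteasome subunits *Psmb8* (0.88), *Psmb9* (0.76) and *Psmb10* (0.75). *H2-K1* had 1799, 2064 and 1978 CPM untreated and 3175, 3646 and 3579 CPM in the difference. *H2-D1* had 4023, 5025 and 4717 CPM untreated and 4430, 5381 and 5357 CPM in the difference and was not called. The 2 heavy chains share part of their sequence, with 9.63% of *H2-K1* and 12.8% of *H2-D1* stretches also found in other genes.

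**Figure D3:**
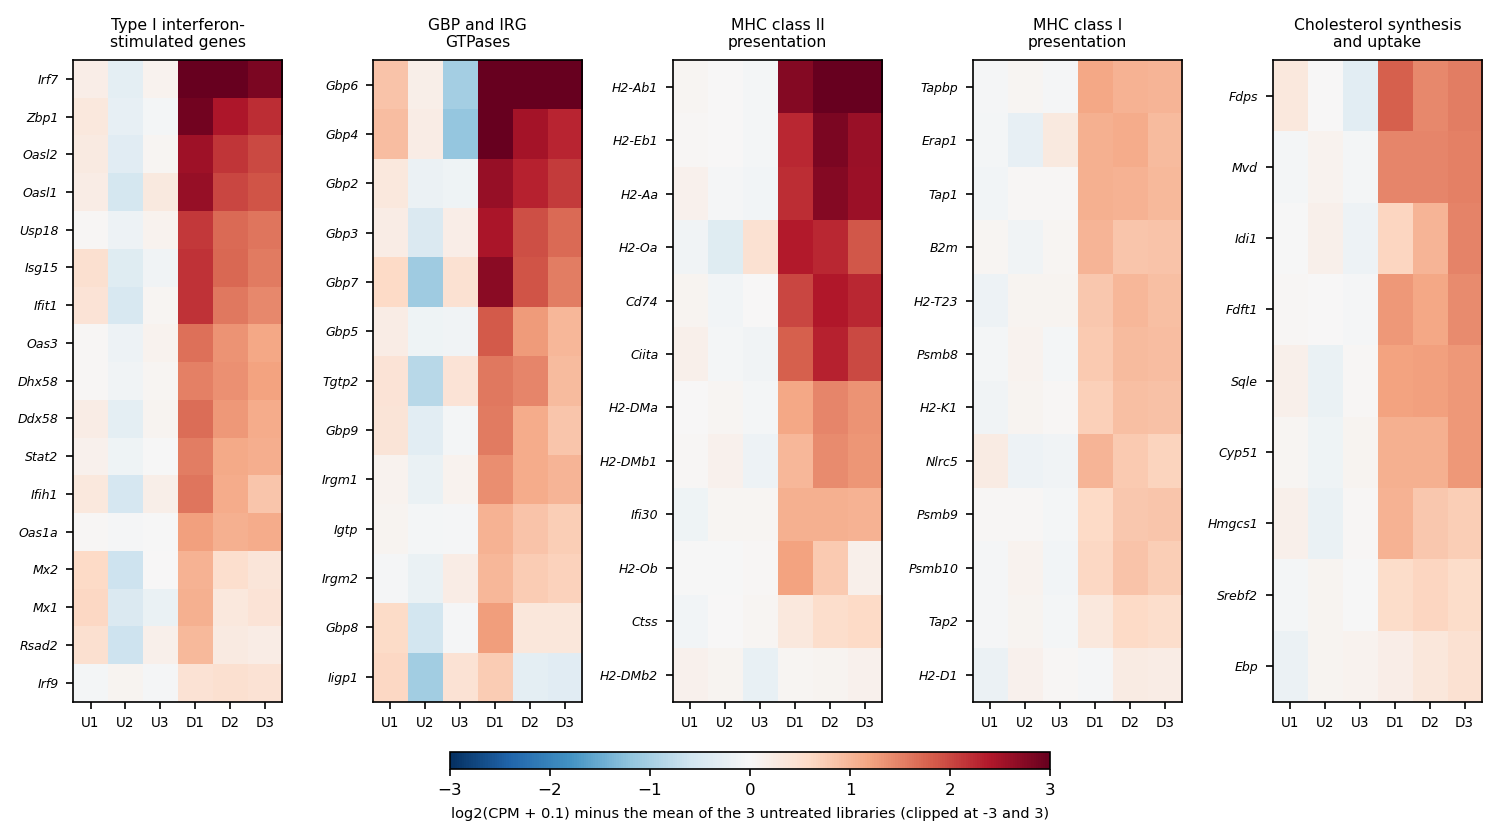
Each row is a tested gene of 5 lists that is named in the text and each column a library (U1 to U3 untreated, D1 to D3 difference, numbered by mouse). Color gives log2(CPM + 0.1) minus the mean of the 3 untreated libraries, clipped at -3 and 3. Red fills the difference columns of nearly every row, with D1 darkest in most interferon and GTPase genes and lightest among *H2-Ab1*, *H2-Eb1* and *H2-Aa*.

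Acute-phase and granule-type secreted genes are defence proteins made by liver, neutrophils and activated macrophages. Of 10 tested, 7 rose and 0 fell, with a median of 2.73. Beside *Saa3*, *Hp* and *Orm1*, they were *Lcn2*, which starves bacteria of iron (5.05, 5.72 and 5.08 CPM untreated and 60.2, 43.2 and 41.4 CPM in the difference), the copper oxidase *Cp* (3.33), the protease inhibitor *Slpi* (2.29) and *Orm2* (2.11). The neutrophil granule gene *Ltf* (-0.50), as well as *Pglyrp1* (-0.53) and *Lbp* (-0.67), were not called. The sum of 13 neutrophil markers went from between 65.2 and 89.4 CPM to between 104 and 149 CPM. *Ly6g* and *Ctsg* were at 3 counts or fewer in every library of both groups. Of these markers 8 were tested, with *Mmp8* called higher, *Ngp* called lower, 6 not called and a median of -0.29. The part of neutrophils in the changes was not tested.

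Complement genes split. Of 15 tested, 5 rose and 6 fell. The genes of activation rose, namely *Cfb*, *C3*, *C1ra* (1.85), *Cfp* (0.58) (properdin) and *C1s1*, which had 1, 0 and 0 counts untreated and 39, 26 and 21 in the difference, a ratio of 90.5 with a 95% counting interval from 15.8 to 3620. The receptors *C5ar1* (-0.58), *C5ar2* (-0.59) and *C3ar1* (-0.43) and the recognition chains *C1qb* (-0.46) and *C1qc* (-0.37) were among those that fell. Without mouse 3, 2 of the 6 were called lower. Of *C1s1* stretches, 35.1% also occur in other genes, most often *C1s2*.

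Chemokine ligands moved both ways. Of 23 tested, 8 rose and 6 fell. Besides *Ccl5*, *Cxcl3* and *Ccl22*, the platelet factor *Pf4* (2.33), the interferon-γ-induced *Cxcl9* (2.07), *Ccl9* (0.79) and *Cxcl16* (0.74) rose. *Ccl17*, which draws T cells and is a mark of IL-4 activation, had 0, 0 and 0 counts untreated and 13, 4 and 1 in the difference. Its level was at least 1.97-fold higher, and most counts came from mouse 1. *Ccl4*, a macrophage inflammatory protein, had 51.5, 49.2 and 47.8 CPM untreated and 10.6, 8.18 and 8.72 CPM in the difference (log2 fold change -2.43, standard error 0.15, adjusted p = 4.2e-07 from edgeR), and its neighbour *Ccl3* had 75.6, 74.2 and 71.95 CPM untreated and 37.1, 26.2 and 26.8 CPM in the difference. *Cxcl2* (-1.02), *Cxcl14* (-0.64), *Cx3cl1* (-1.62) and *Cxcl12* (-2.70) fell too. The monocyte chemokine *Ccl2* (0.38) and the interferon-induced *Cxcl10* (-0.29) were not called.

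Of 13 chemokine and chemoattractant receptors, 6 rose and 1 fell. *Ccr7* (3.95), the receptor for migration to lymph nodes, *Ccr1* (2.92), *Cmklr1* (1.75) and *Fpr2* (1.54) were among those that rose. *Cxcr4* (0.25) was also called higher, but its call was not kept under 12 of the other settings tried. *Cxcr3*, the receptor for interferon-induced chemokines, had 12.9, 14.5 and 14.3 CPM untreated and 7.55, 8.18 and 9.95 CPM in the difference (log2 fold change -0.71, standard error 0.15, adjusted p = 0.0057 from edgeR).

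Cytokines and growth factors were as divided, with 8 of 25 higher and 9 lower. *Il1b*, the inflammasome-processed fever cytokine, had 24.2, 17.4 and 21.8 CPM untreated and 187, 248 and 190.1 CPM in the difference (log2 fold change 3.27, standard error 0.32, adjusted p = 1.6e-05 from edgeR). *Il1a* (3.47) and the antagonist of both, *Il1rn* (1.45), rose as well, as did *Csf1* (2.12), the macrophage growth factor, *Tnfsf13b* (1.99) (BAFF) and *Tnfsf15* (2.19). *Il12b* had 1, 2 and 0 counts untreated and 28, 13 and 10 in the difference, a ratio of 17.9 with a 95% counting interval from 5.79 to 89.6. In contrast, *Tnf* had 26.6, 26.7 and 20.9 CPM untreated and 10.9, 8.36 and 7.63 CPM in the difference (log2 fold change -1.47, standard error 0.13, adjusted p = 6.0e-06 from edgeR). *Il10*, the main inhibitory cytokine of macrophages, had 1.99, 1.61 and 2.19 CPM untreated and 0.858, 0.6101 and 0.654 CPM in the difference. *Gdf15* (-2.19), *Igf1* (-0.97), *Il16* (-1.16) and *Pdgfb* (-0.85) fell. *Tgfb3* (-1.59) fell from a low level, *Tgfb1* (-0.20) was not called, and *Tgfb2* was below the count filter.

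Upstream receptors and regulators moved both ways. Of 22 Toll-like receptor genes and adaptors, 4 rose and 3 fell, with *Cd14* (0.78) highest and *Tlr9* (-0.38) lowest. These are 31.8% of the list, against 21.4% of all genes tested, and without mouse 3, 0 were called lower. *Myd88* (0.08), *Ticam1* (0.02) and *Tlr4* (0.56) were not called. Among 24 NF-κB subunits and targets, 6 rose and 3 fell (37.5%), and under total count scaling 7 were called lower. The mitochondrial dismutase *Sod2* (1.48), the adaptor *Traf1* (1.399) and the co-regulator *Bcl3* (0.79) were the highest, and *Nfkbiz* (-0.97) and *Nfkbie* (-0.70) the lowest. The feedback genes *Nfkbia* (-0.22) and *Tnfaip3* (-0.20) and the subunits *Rela* (-0.13) and *Nfkb1* (-0.15) were not called. Of 12 inflammasome genes 4 rose, led by *Il1r1* (2.45) and *Il18bp* (1.76), and *Nlrp3* (-0.29) and *Nlrp1b* (-0.76) fell. Without mouse 3, 2 of these 12 were called higher and 0 lower, and without mouse 1 or mouse 2, 1 was called lower.

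Wnt target genes that could be tested were mostly lower. Of 22 feedback and target genes, 14 did not reach the count filter, among them *Axin2*, *Lef1*, *Tcf7*, *Nkd1*, *Notum* and *Sp5*. Among the 8 tested, 6 fell, 0 rose and *Cd44* (-0.11) and *Znrf3* (-0.16) were not called, with a median of -1.37. *Ccnd1*, the cyclin of early G1, had 21.97, 31.3 and 32.3 CPM untreated and 2.75, 3.11 and 2.98 CPM in the difference (log2 fold change -3.25, standard error 0.18, adjusted p = 1.8e-07 from edgeR). *Myc*, the growth regulator, had 10.7, 13.8 and 11.7 CPM untreated and 2.12, 2.38 and 2.54 CPM in the difference (log2 fold change -2.36, standard error 0.16, adjusted p = 1.1e-06 from edgeR). *Bambi*, a decoy receptor for TGF-β family ligands, had 13.3, 17.6 and 26.8 CPM untreated and 4.86, 6.101 and 10.1 CPM in the difference. *Sox4* (-2.07), *Rnf43* (-1.28), which removes Frizzled from the surface, and *Dkk2* (-1.05), a Wnt modulator, were the others. Genes on the other strand overlap 54.6% of the exon bases of *Sox4* and 23.4% of those of *Ccnd1*.

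*Axin2*, the most general feedback target of β-catenin, had 0, 0 and 1 counts in untreated libraries and 1, 1 and 5 in the difference. The ratio of 7.37 had a 95% counting interval from 0.946 to 332, so a change was not detectable at this depth. *Lef1* had 2, 0 and 0 counts untreated and 0 in every difference library. Both stayed at or below 5 counts in each of the 6 libraries, and neither was tested.

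Of 28 Wnt receptors and transducers, 8 fell, 1 rose and 19 were not called. The calls are 32.1% of the list, against 21.4% of all genes tested. *Tcf7l2*, the TCF factor that reached the count filter, had 24.3, 16.6 and 18.99 CPM untreated and 9.89, 6.83 and 7.26 CPM in the difference (log2 fold change -1.32, standard error 0.19, adjusted p = 3.7e-04 from edgeR). The receptor *Fzd7* had 32.7, 42.3 and 35.2 CPM untreated and 13.8, 17.1 and 14.8 CPM in the difference, and *Fzd4* (-1.10), *Fzd5* (-0.48), the co-receptor *Lrp5* (-0.56), the co-repressor *Tle1* (-0.82) the kinase *Csnk1e* (-0.58) and the Wnt carrier *Wls* (-0.33) fell too. *Fzd1* (1.07) was the gene that rose, from 4.73, 4.88 and 4.64 to 7.09, 12.1 and 11.5 CPM. *Ctnnb1*, which encodes β-catenin, was abundant and not called (0.23, adjusted p = 0.073 from edgeR), with 537, 490.3 and 493 CPM untreated and 606, 616 and 566 CPM in the difference. *Apc* (-0.16), *Axin1* (-0.15), *Gsk3b* (-0.11) and *Lrp6* (0.25) were not called either. Without mouse 3, 4 of the 8 were called and *Fzd1* was not, and without mouse 1, 5 of the 8 were called.

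Cell cycle genes outside G1 showed few calls. Of 20 G1 cyclins, inhibitors and Myc partners, 6 fell and 0 rose, with the inhibitor *Cdkn1c* (-2.07) and the kinase *Cdk6* (-0.76) beside *Ccnd1* and *Myc*. Of 33 replication genes 1 rose and 3 fell, and *Pcna* (-0.39), the sliding clamp, was among the latter. Of 33 mitosis genes 6 rose and 0 fell (18.2%), with *Bub1* (1.39) and *Top2a* (0.97) as examples. Over all genes tested, 21.4% were called in either direction and 10.9% were called higher. The mitosis genes thus lay below the first share and above the second. The replication genes, with 12.1% called, lay below the share of all calls, and the G1 genes, with 6 of 20, only somewhat above it. The mitosis genes rested on mouse 1, which was highest in 32 of the 33 in the difference and in 28 in untreated cells, and without it 0 rose and 1 fell. Without mouse 3, 3 mitosis genes rose, 3 G1 genes fell, and 0 replication genes were called in either direction.

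Early-response genes are induced within minutes by growth factor and stress signals. Of 13 AP-1 and ATF factors, 4 fell and 1 rose (38.5%, against 21.4% of all genes tested). *Egr1* had 9.08, 11.2 and 9.09 CPM untreated and 1.54, 2.196 and 1.82 CPM in the difference and *Nr4a1* 11.98, 9.83 and 11.8 CPM untreated and 1.03, 2.62 and 2.03 CPM in the difference. *Egr3* (-2.45), *Fosb* (-2.77), *Atf3* (-0.94), *Fos* (-0.77) and *Jun* (-0.66) fell, whereas *Fosl2* (0.58) rose and *Junb* (0.02) was not called. MAP kinase phosphatases and Sprouty-type inhibitors, which are themselves induced by MAP kinase signaling and restrain it, were lower where called. Of 14 tested, 9 fell and 0 rose, with a median of -0.63. *Dusp1* had 34.2, 38.6 and 33.8 CPM untreated and 14.5, 14.1 and 12.6 CPM in the difference (log2 fold change -1.37, standard error 0.14, adjusted p = 2.2e-05 from edgeR). *Dusp2* (-1.38), *Dusp5* (-1.46), *Dusp7* (-1.05), *Dusp6* (-0.79), *Spred1* (-0.70) and *Spred2* (-0.73) fell. Without mouse 3, 5 of the 9 were called.

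**Figure D4:**
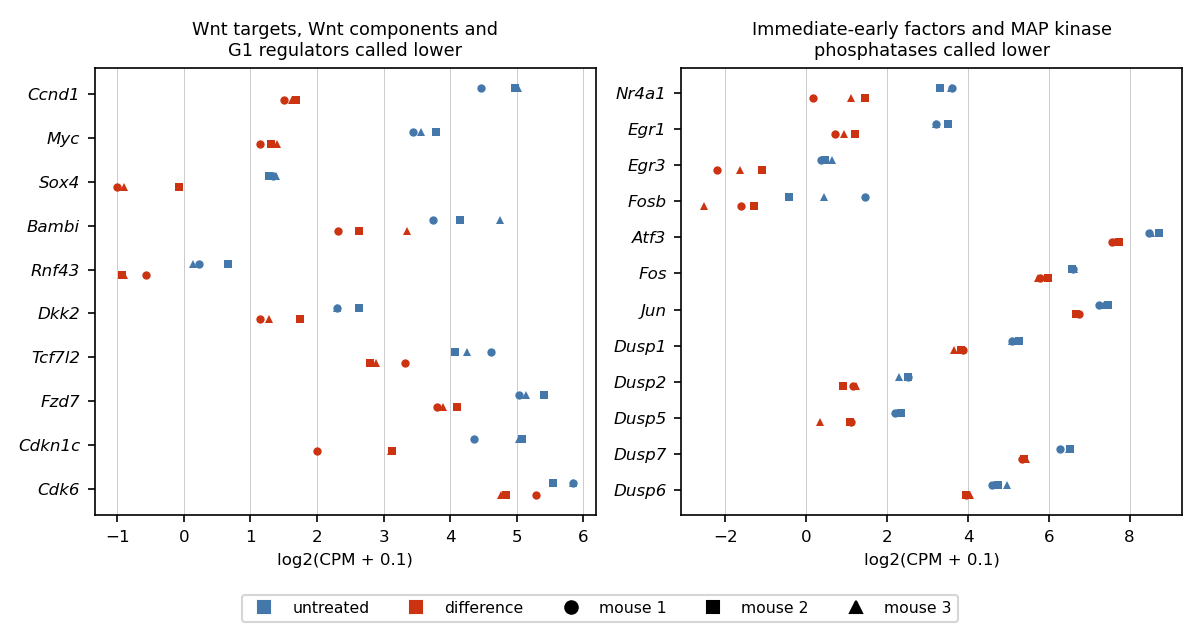
Level in each library, on the x axis as log2(CPM + 0.1), for 10 Wnt and G1 genes (left) and 12 early-response genes and MAP kinase phosphatases (right), all called lower. Blue points are untreated and red points difference libraries, with a marker shape for each mouse; in every gene the red points lie to the left of the blue points.

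Transcription factors of the myeloid lineage were also more often lower, with 14 of 32 lower and 6 higher. Besides *Id3* and the EGR factors, *Id2* had 127, 129 and 133 CPM untreated and 52.8, 46.9 and 46.9 CPM in the difference and *Cebpa*, a factor that directs progenitors to the myeloid fate, had 169, 213 and 177 CPM untreated and 76.98, 104 and 93.2 CPM in the difference. *Klf2* (-0.92), *Irf4* (-0.99) and *Maf* (-0.80) fell. *Tfec* (1.06), *Klf4* (0.83), *Batf2* (0.81), *Irf1* (0.38) and *Cebpb* (0.40) rose. The lineage factor *Spi1* (-0.20) (PU.1) was not called, nor were *Runx1* (-0.21) and *Irf8* (-0.24). Without mouse 3, 3 were called higher and 10 lower, and without mouse 1, 3 higher and 13 lower.

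Enzymes of nitric oxide, arginine and itaconate metabolism are the biochemical signature of inflammatory macrophages. Of 16 tested, 6 rose and 2 fell. *Nos2*, the inducible nitric oxide synthase, had 1, 0 and 1 counts untreated and 157, 90 and 28 in the difference, a ratio of 145 with a 95% counting interval from 39.7 to 1200. *Ass1* (2.95), which regenerates arginine, *Arg2* (2.63), the arginine transporter *Slc7a2* (1.19) and *Gch1* (0.62), which supplies the cofactor of nitric oxide synthase, rose with *Acod1*. *Arg1*, the cytosolic arginase, had 0, 2 and 1 counts untreated and 0, 1 and 0 in the difference. Of *Ass1* stretches, 38.6% occur in other genes, most often a pseudogene.

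Cholesterol synthesis and uptake genes, which the factor SREBP-2 drives when sterols are scarce, rose almost throughout. Of 24 tested, 22 rose and 0 fell, with a median of 0.86. No gene was called different from the remainder, and without the remainder of mouse 2, 1 was higher in the difference. *Sqle*, which makes the first oxygenated sterol precursor, had 21.9, 17.2 and 20.4 CPM untreated and 45.4, 46.8 and 49.04 CPM in the difference (log2 fold change 1.25, standard error 0.12, adjusted p = 1.7e-05 from edgeR). *Fdft1*, the squalene synthase, had 11.2, 11.1 and 10.8 CPM untreated and 27.2, 24.9 and 29.6 CPM in the difference. *Fdps* (1.61), *Mvd* (1.48), *Cyp51* (1.15), *Hmgcs1* (0.86) and *Srebf2* (0.59), the gene of SREBP-2 itself, rose. *Idi1* (1.34) and *Ebp* (0.33) did not pass. Without mouse 3, 17 of 23 were called.

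The window of *Hmgcs1* (chr13:119690101-119690350, plus strand) is shown as the only one of the 15 called cholesterol genes with a window that held the sterol regulatory element TCACNCCAC, in capitals. The motif was in 1.26% of tested genes, in 1.60% of those called higher and in 1.84% of those called lower.
Hmgcs1: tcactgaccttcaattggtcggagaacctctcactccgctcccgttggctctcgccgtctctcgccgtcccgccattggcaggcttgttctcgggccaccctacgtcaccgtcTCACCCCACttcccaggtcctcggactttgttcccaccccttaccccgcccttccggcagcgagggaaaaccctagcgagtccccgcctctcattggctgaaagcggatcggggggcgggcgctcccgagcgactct

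Genes that handle and export lipid were divided, with 8 of 22 lower and 4 higher. *Pparg*, a nuclear receptor for fatty acids, had 46.5, 54.6 and 48.7 CPM untreated and 12.8, 14.4 and 14.4 CPM in the difference (log2 fold change -1.85, standard error 0.11, adjusted p = 3.3e-07 from edgeR). *Lipa*, the lysosomal acid lipase, had 2764, 3115 and 3049 CPM untreated and 1433, 1625 and 1693 CPM in the difference. *Abcg1* (-0.65), which exports cholesterol to HDL, *Cyp27a1* (-1.07), *Plin2* (-0.50) and *Mylip* (-0.70), a ubiquitin ligase, fell with *Apoe* and *Lpl*. *Abca1* (0.53) and the LXR genes *Nr1h3* (-0.06) and *Nr1h2* (-0.14) were not called. *Acsl1* (2.32), which activates fatty acids, *Scd2* (2.09) and *Fabp5* (0.78) rose.

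Glycolytic and hypoxia-linked genes were higher in 19 of 29 and lower in 1, with a median of 0.48. *Hif1a*, the oxygen-sensitive factor, had 58.3, 33.7 and 55.7 CPM untreated and 259, 206 and 172 CPM in the difference (log2 fold change 2.10, standard error 0.27, adjusted p = 1.5e-04 from edgeR). The lactate exporter *Slc16a3* (1.42), *Ldha* (0.75), *Pfkl* (0.95), *Tpi1* (0.97) and the glucose transporter *Slc2a1* (0.94) rose, and the transporter *Slc2a3* (-0.60) fell. Without mouse 3, 11 were called higher and 0 lower. Of 43 subunits of oxidative phosphorylation, 14 rose and 1 fell (34.9%, against 21.4% of all genes tested). Their median was smaller, at 0.27, with *Uqcrq* (0.66) and *Sdhb* (0.61) as examples. Mouse 2 had the highest level of 35 of the 43 in untreated cells and mouse 3 that of 36 in the difference, and without mouse 3, 1 was called higher. The lone lower call was lost without any 1 mouse. Of 23 genes of the unfolded protein and integrated stress responses, 13 rose and 3 fell, among them the chaperones *Hspa5* (0.72), *Hsp90b1* (0.99) and *Calr* (1.10), while *Atf6* (-0.26) and *Ern1* (-0.26), 2 sensors of that response, fell. Without mouse 3, 6 were called higher and 0 lower. The lower calls were also lost without mouse 2, and 1 was left without mouse 1.

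Antioxidant genes of the NRF2 program were divided, with 9 of 24 higher and 5 lower, and without mouse 3, 5 higher and 2 lower. The cystine importer *Slc7a11* (2.50), *Mgst2* (1.79), *Prdx5* (1.41) and *Nqo1* (1.36) rose, but *Gclc* (-0.46), *Gclm* (-0.33) *Txnrd1* (-0.37), *Cat* (-0.63) (catalase) and *Osgin1* (-0.90) fell and *Hmox1* (0.16) was not called. Of 15 iron genes, *Spic* (1.68) and *Fth1* rose, and *Slc40a1*, the iron exporter ferroportin, had 438, 381 and 483 CPM untreated and 192, 165 and 201 CPM in the difference. In all, 2 iron genes rose and 3 fell, or 33.3% of those tested, against 21.4% of all genes tested. Without mouse 2 or without mouse 3, 1 iron gene was called higher and 1 lower. Of 33 lysosomal genes 10 rose and 0 fell (30.3%), with *Ctsk* (1.398), *Ctsc* (0.95) and *Ctsz* (0.74) highest. Under total count scaling 4 lysosomal genes were called lower, and without mouse 3, 2 were called higher.

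CD300, TREM and paired immunoglobulin-like receptors set the threshold of myeloid activation through activating and inhibitory partners. Of 21 tested, 11 rose and 8 fell, and only *Clec4a2* (-0.23) and *Trem1* (-0.56) were not called. *Pilra*, an inhibitory receptor, had 29.5, 24.7 and 31.02 CPM untreated and 83.3, 82.2 and 78.4 CPM in the difference (log2 fold change 1.51, standard error 0.12, adjusted p = 3.3e-06 from edgeR). *Pilrb1* (1.10), *Sirpb1a* (1.57), *Pirb* (0.65) and *Siglec1* (0.63) rose. *Trem2*, a lipid-sensing receptor of plaque and adipose macrophages, had 1293, 1652 and 1361 CPM untreated and 662, 744 and 811 CPM in the difference (log2 fold change -0.96, standard error 0.13, adjusted p = 1.9e-04 from edgeR). *Cd300a* (-0.95), *Cd300lb* (-0.65) and *Sirpa* (-0.41) fell with *Cd300e*. Without mouse 3, 7 rose and 5 fell, and without mouse 1, 7 rose and 7 fell. Reads of *Pilra*, *Pilrb1* and *Sirpb1a* are partly shared with other genes, at 20.8%, 32.2% and 40.4% of their stretches.

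C-type lectin receptors recognise sugars and dead cells. Of 14 tested, 5 rose and 4 fell, and without mouse 3, 3 rose. *Clec4e* (Mincle), a receptor for mycobacterial glycolipid, had 51.2, 33.4 and 32.9 CPM untreated and 344, 310.4 and 274 CPM in the difference (log2 fold change 2.99, standard error 0.16, adjusted p = 1.6e-07 from edgeR), and *Clec4n* (1.53) (dectin-2) rose. The mannose receptor *Mrc1* had 47.9, 36.4 and 66.7 CPM untreated and 27.9, 22.5 and 35.02 CPM in the difference, and *Clec10a* (-1.33) and *Clec4b1* (-2.72) fell. *Cd209a* had 24, 20 and 11 counts untreated and 0, 0 and 0 in the difference, at least 5.76-fold lower.

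Scavenger and efferocytosis receptors, which clear modified lipoprotein and dying cells, fell in 7 of 16 genes and rose in 2. *Cd5l*, a secreted protein of tissue macrophages, had 46.6, 72.6 and 62.7 CPM untreated and 8.46, 14.2 and 14.8 CPM in the difference. The hemoglobin receptor *Cd163* had 10.8, 7.13 and 11.6 CPM untreated and 2.29, 1.52 and 2.62 CPM in the difference, and *Cd36* (-0.82), *Scarb1* (-0.59) and *Gas6* (-0.88) fell with *Lrp1*. *Marco*, a receptor for bacteria and particles, had 11.6, 12.2 and 12.7 CPM untreated and 34.5, 38.4 and 44.6 CPM in the difference (log2 fold change 1.68, standard error 0.13, adjusted p = 2.2e-06 from edgeR), and *Msr1* (0.75) rose. The efferocytosis receptors *Mertk* (-0.16) and *Axl* (-0.13) were not called.

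Among integrins and adhesion genes 8 of 22 rose and 4 fell, with the β2 partners *Itgax* (1.34) (CD11c), *Itgam* (1.06) (CD11b) and *Itgb2* (0.67) higher and *Itgb3* (-1.78) lower. Without mouse 3, 5 rose. Of 18 matrix proteases and related genes 9 rose and 3 fell, and without mouse 3, 1 fell. *Mmp14*, a membrane-bound collagenase, had 56.7, 61.7 and 64.7 CPM untreated and 485, 534 and 502 CPM in the difference (log2 fold change 3.06, standard error 0.09, adjusted p = 2.3e-09 from edgeR), *Mmp25* (3.27), *Mmp8* (2.15) and *Thbs1* (2.59) rose, and *Plau* (-1.42) (urokinase) fell. Of 8 Ms4a family genes, which encode tetraspan membrane proteins, 6 rose and 0 fell, with a median of 1.58. *Ms4a4c* (2.69), *Ms4a4a* (2.46) and *Ms4a6d* (1.90), *Ms4a6b* (2.11), *Ms4a6c* (1.26) and *Ms4a4b* (1.15) rose and *Ms4a7* (0.06) was not called. Of *Ms4a6c* stretches, 51.4% occur in other genes, and without mouse 2, 1 Ms4a gene was called lower. *Fcgr2b*, the inhibitory receptor for IgG, had 50.8, 42.2 and 43.3 CPM untreated and 213, 219.6 and 213 CPM in the difference, *Fcgr1* (1.07) rose, and *Fcgr4* (-0.48) and *Fcgrt* (-0.72) fell, of which 1 was called without mouse 3.

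Of 15 costimulatory and checkpoint ligands, 6 rose and 2 fell, and without mouse 3, 1 fell. *Cd86*, the ligand of CD28, had 13.2, 8.805 and 11.7 CPM untreated and 38.3, 31.5 and 27.9 CPM in the difference, and *Cd274* (PD-L1), the inhibitory ligand of PD-1, had 31.4, 27.8 and 30.1 CPM untreated and 106, 85.1 and 78.3 CPM in the difference. *Slamf8* (2.51) and *Lgals9* (1.19) rose, and *Cd80* (0.24) and *Cd40* (-0.09) were not called. Among 15 purinergic genes 6 rose and 1 fell. *Adora2a*, the adenosine receptor that raises cyclic AMP, had 0.483, 0.129 and 0.501 CPM untreated and 4.404, 5.74 and 5.59 CPM in the difference (log2 fold change 3.76, standard error 0.32, adjusted p = 5.8e-06 from edgeR), and *P2ry14* (1.78) and *Adora3* (0.89) rose while *Entpd1* (-0.41), which breaks down extracellular ATP, fell. Without mouse 3, 3 were called higher and 0 lower.

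**Figure D5:**
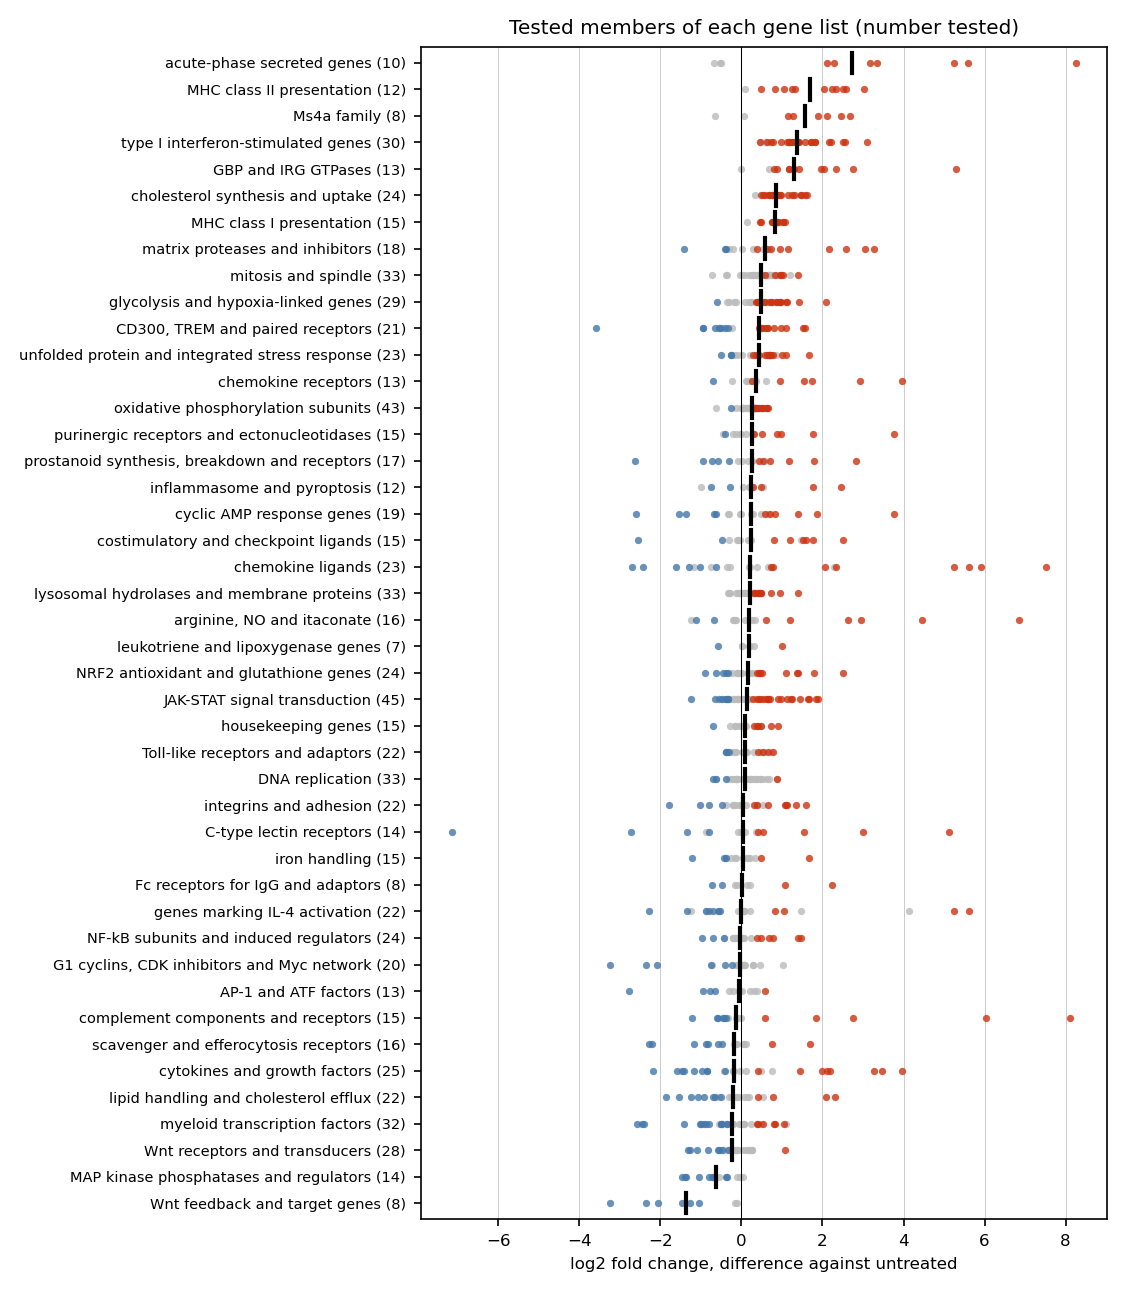
Each row is a gene list with the number of tested members in parentheses, ordered by median, and each point is a member's log2 fold change between difference and untreated libraries. Red points were called higher, blue points lower and grey points were not called; black bars mark medians, which run from 2.73 for acute-phase genes to -1.37 for Wnt targets, against -0.011 over all tested genes.

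Prostaglandin E2 is made from arachidonic acid by cyclooxygenases and a terminal synthase and is inactivated by 15-hydroxyprostaglandin dehydrogenase. *Ptgs2*, the inducible cyclooxygenase, had 1.07, 0.514 and 0.752 CPM untreated and 8.81, 4.39 and 3.996 CPM in the difference (log2 fold change 2.83, standard error 0.33, adjusted p = 6.5e-05 from edgeR). *Ptges*, the terminal synthase, had 3.598, 2.63 and 2.76 CPM untreated and 10.3, 11.8 and 9.299 CPM in the difference (log2 fold change 1.80, standard error 0.16, adjusted p = 9.6e-06 from edgeR), and the exporter *Abcc4* (0.70) and the reductase *Ptgr1* (0.54) rose. *Ptgs2* and *Ptges* were higher and *Hpgd* was lower in all 3 mice. *Ptgs1*, the constitutive cyclooxygenase, had 33.7, 31.8 and 36.1 CPM untreated and 17.6, 19.8 and 32.1 CPM in the difference, with mouse 3 overlapping the untreated range, and *Hpgds* (-0.95), the prostaglandin D2 synthase of myeloid cells, fell. The receptors *Ptger2* (0.26) and *Ptger4* (0.16), which raise cyclic AMP, were not called, *Ptger1* (-0.31) fell and the prostacyclin receptor *Ptgir* (1.19) rose. In all, 6 of 17 prostanoid genes rose and 5 fell, and without mouse 1 or without mouse 3, 3 fell.

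Genes that answer to cyclic AMP were divided, with 6 of 19 higher and 5 lower. *Nr4a3* (1.88), *Crem* (0.83), *Pde4b* (0.71) and *Pde7b* (1.41) rose and *Nr4a1* and *Dusp1* fell. Among 7 leukotriene genes, *Alox5* (-0.57) was called lower and *Cysltr2* (1.00) higher (28.6%, against 21.4% of all genes tested). The higher call was lost under DESeq2, total count scaling, thinning and without any 1 mouse, and the lower call under thinning and without mouse 2 or mouse 3.

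JAK-STAT components carry signals from most cytokine receptors. Of 45 tested, 19 rose and 8 fell, with a median of 0.14. *Socs3*, a feedback inhibitor induced by STAT3, had 12.2, 13.8 and 10.7 CPM untreated and 56.1, 40.2 and 38.2 CPM in the difference (log2 fold change 1.85, standard error 0.16, adjusted p = 5.8e-06 from edgeR). *Stat3* had 158, 179 and 171 CPM untreated and 257, 259.8 and 265 CPM in the difference (log2 fold change 0.62, standard error 0.08, adjusted p = 2.1e-04 from edgeR). *Socs1* (1.23), *Cish* (1.90), *Jak2* (1.65), the common γ chain *Il2rg* (1.46) and *Il4ra* (0.55) rose. *Stat6*, which carries the IL-4 signal, had 331, 389.8 and 368 CPM untreated and 328, 350.1 and 332 CPM in the difference, and the change of -0.11 did not pass (adjusted p = 0.4 from edgeR). The receptor chains *Il6st* (-0.33) (gp130), *Il10ra* (-0.33), *Il10rb* (-0.48) and *Ifngr1* (-0.66) fell. Without mouse 3, 12 rose and 3 fell, and without mouse 1, 5 fell. *Met* (1.59), the receptor of hepatocyte growth factor, rose from 2.52, 1.54 and 2.82 to 7.26, 7.08 and 6.17 CPM, and *Il6* did not reach the count filter.

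Both parts of the Wnt3a-treated counts are compared with the same untreated libraries, so the test of whether they differ is the direct contrast between them. The difference and the remainder differed in 556 of 12421 genes (4.48%), with the difference higher in 248 and lower in 308. Among the genes called against untreated cells, this applied to 183 of the 1350 higher and 140 of the 1309 lower genes. The remainder of mouse 2 stood apart, since without it 1677 genes differed, whereas without any other of these 6 libraries the count was 233 to 304. Genes that mark IL-4 activation were the list with the largest share. Of 22 tested, 17 differed and all 17 were lower in the difference. Without the remainder of mouse 2, 16 of 21 differed, again all lower. Some of the 22, *Arg1* among them, passed the count filter only through IL-4 or remainder libraries. Their direction in this contrast is thus partly set by the filter.

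Against untreated cells these IL-4 markers did not rise as a group, with 4 higher (2 without mouse 1), 7 lower and a median of -0.01. With filter and fit on the compared libraries alone, 15 of them were tested. Of these, 3 were higher and 7 lower, and the median was -0.56. *Mrc1* had 133, 152 and 142 CPM in the remainder and 206, 191 and 269.5 CPM with IL-4 alone, against 27.9, 22.5 and 35.02 CPM in the difference. *Egr2* had 27.9, 26.96 and 28.7 CPM in the remainder and 4.46, 5.003 and 4.94 CPM in the difference. *Flt1*, a VEGF receptor, had 18.99, 11.7 and 17.3 and 1.03, 0.671 and 0.291 CPM, and *Chil3* (0.07) was not called against untreated cells. *Ccl22* had 83.5, 37.7 and 33.4 CPM in the remainder against 26.4, 8.66 and 6.39 CPM in the difference. In the other direction, *Saa3* was higher in the difference (2309, 3929 and 3823 CPM) than in the remainder (997, 1474 and 853 CPM). For *Hpgd* the remainder had 8.38, 19.8 and 15.3 CPM, and for *Ccnd1* 8.999, 7.06 and 10.04 CPM.

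Among 15 genes often used as references, 6 rose and 1 fell, and without mouse 3, 1 rose and 0 fell. *Gapdh* had 5.26, 5.27 and 4.45 CPM untreated and 7.49, 7.99 and 9.37 CPM in the difference. This is low beside the reference gene *B2m*, with a mean of 2815 CPM in untreated libraries. Of the stretches of *Gapdh*, 25.1% occur in other genes, so its reads cannot be fully assigned. Its level and change, which also count in the glycolytic list, are therefore uncertain. *Hprt* had 127, 92.9 and 109 CPM untreated and 64.05, 64.6 and 73.1 CPM in the difference. *Polr2a* (-0.01), *Tbp* (-0.07), *Ywhaz* (0.10) and *Actb* (-0.28) were not called. Markers of other cell types were summed in each library. The summed level of 10 T and NK cell markers was at most 6.47 CPM in any library, that of 8 erythroid markers at most 0.707 CPM, and that of 10 stromal markers went from between 9.35 and 21.3 CPM to between 6.25 and 12.5 CPM. For 8 dendritic cell markers it went from between 2.13 and 3.01 CPM to between 3.41 and 8.58 CPM, and for 8 osteoclast markers from between 145 and 172 CPM to between 224 and 293 CPM. For 6 endothelial markers it was 284 to 307 CPM and 279 to 352 CPM, while mast cell and megakaryocyte markers stayed below 5 CPM in all libraries. Single markers moved both ways. Of 3 dendritic cell markers tested, *Ccr7* was called higher and *Cd209a* lower. Of 6 osteoclast markers tested, *Dcstamp*, *Acp5* and *Ctsk* were called higher and *Ocstamp* and *Atp6v0d2* lower. Of 5 stromal markers tested, *Pdgfrb* was called higher and *Cxcl12* lower. The part of these cells in the changes above was not tested.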

How the data were processed

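RNA-seq reads were counted per gene by the authors, and the deposited table holds whole-number counts for 12 samples without normalization. Per the labels, the submitters' processing notes name Trimmomatic 0.36, STAR 2.6.0, SAMtools 1.9, HTSeq 0.11.1, FastQC 0.11.7 and DESeq2 1.24.0. Whether multi-mapped reads were counted is not given in the sources used here. The members and gene lists were chosen with earlier results of these data known.

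The difference and remainder libraries were formed per mouse as described above. The replicates of a group are separate animals, and each animal gave 1 culture to every group under the same number, so the mouse was the replicate block. The correlations of the deviations of untreated and difference libraries of the same mouse were 0.454, 0.294 and 0.0207. Those of the other pairs of groups were mixed in sign. They ran from -0.417 (untreated and remainder, mouse 2) to 0.286 (IL-4 and remainder, mouse 1), so they do not bear out the pairing throughout. Genes that reached 10 counts in 3 or more of 12 libraries (untreated, IL-4, difference and remainder) were fitted together with edgeR 4.0.16 in R 4.3.3, with TMM scaling and quasi-likelihood tests, 2-sided, and Benjamini-Hochberg adjustment. On counts simulated for difference against untreated over 12193 genes, 84 of 100 genes changed 2-fold and 99 of 100 changed 4-fold were recovered, with 9 false calls of 192. The simulation changed 200 genes in all, far fewer than were called in the data, and held no mouse effect. Its recovery and false calls thus do not give the error rates of this comparison. Alternatives were the fit without the block, fits on the compared libraries alone, DESeq2 1.42.0, other scalings and filters, thinning to 1 depth, the deposited columns and leaving out libraries. Counts of list members under these fits, and those without the remainder of mouse 2, were added after the data were seen.

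Named genes were the 15 highest and 15 lowest changes with at least 8 CPM, the 5 with the most reads per direction, the 3 highest and 3 lowest called members of each of 44 lists, the members of lists of up to 16 genes, and genes the study names in cultured macrophages. List members beyond these were chosen as examples after their values were seen, and members of short lists are mostly given by their counts. The lists were not tested as sets, and some members counted in them are not reported here by name. Counting intervals are exact, at 95%, and, like the floor of 3 counts in each library of a group at 0, cover counting error only. Symbols were matched for 48058 of 48526 genes (99.0%), with exon lengths and positions from GENCODE M21 on mm10. Promoter windows came from RefSeq on GRCm38.p6 and were found for 9480 of 12420 tested symbols. Figures use a pseudocount of 0.1 CPM.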

Additional observations from a re-analysis of the deposited data

Results flagged for a closer look

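The difference and the remainder had different effects on 81 of the genes named above, by edgeR's quasi-likelihood test of the direct contrast with an adjusted p under 0.05 over all 12421 genes. The difference was higher in 38 and lower in 43, and 5 of the 81 were not called against untreated cells. Without the remainder of mouse 2, 79 were called the same way and *Susd2* and *Mmp8* were not called. Which culture each part came from was not tested.

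Values in parentheses are the log2 level in the difference minus that in the remainder. Lower in the difference and higher than in untreated cells were *Ccl17* (-2.71), *Slc7a2* (-2.41), *Itgax* (-2.06), *Ccl22* (-2.00), *Socs1* (-1.92), *Nr4a3* (-1.45), *Ccr7* (-1.44), *Cish* (-1.43), *Mmp25* (-1.36), *Fcgr2b* (-0.95), *Cd74* (-0.92), *H2-M2* (-0.89), *Csf1* (-0.86), *H2-Eb1* (-0.77), *H2-Aa* (-0.75), *Ciita* (-0.73), *Il1rn* (-0.72), *Il18bp* (-0.71), *C3* (-0.69), *Cd274* (-0.66), *H2-DMa* (-0.62), *H2-Ab1* (-0.53) and *Gbp2* (-0.52). Lower in the difference and lower than in untreated cells were *Flt1* (-4.55), *Itgb3* (-2.65), *Egr2* (-2.54), *Mrc1* (-2.36), *Ptgs1* (-1.72), *Irf4* (-1.58), *Ccnd1* (-1.56), *Myc* (-1.49), *Igf1* (-1.46), *Cd83* (-1.19), *Clec10a* (-0.89), *Pparg* (-0.87), *Atf3* (-0.78), *Cd36* (-0.70), *Plau* (-0.57) and *Cd300lb* (-0.29). Lower in the difference and not called against untreated cells were *Arg1* (-8.71), *Cd40* (-0.86), *Cd44* (-0.54) and *Ctnnb1* (-0.39). *Arg1* had 24.95, 5.96 and 7.48 CPM in the remainder and 1 count in all 3 difference libraries together, so its fitted value depends on the prior count.

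Higher in the difference and higher than in untreated cells were *Ctsc* (0.37), *Mmp14* (0.42), *Fcgr1* (0.47), *Pirb* (0.51), *Slc16a3* (0.52), *Cd14* (0.58), *Susd2* (0.69), *Ly6i* (0.72), *Mmp8* (0.75), *Marco* (0.81), *Sirpb1a* (1.05), *Clec4n* (1.07), *Hp* (1.27), *Fpr2* (1.30), *Slpi* (1.31), *Igfbp7* (1.48), *Lcn2* (1.57), *Saa3* (1.58), *Il1b* (1.59), *Pilrb1* (1.71), *Tnfsf15* (1.73), *Pilra* (1.76) and *Vcan* (2.06). Higher in the difference, although lower than in untreated cells, were *C5ar1* (0.35), *Mylip* (0.42), *Gclm* (0.43), *Gas6* (0.44), *Nlrp3* (0.55), *Cat* (0.55), *Igfbp4* (0.59), *Alox5* (0.77), *Slc40a1* (0.79), *Cxcr3* (0.86), *Hpgd* (0.94), *Cd163* (0.95), *Nfkbiz* (1.12) and *Dkk2* (1.73). *Clec4a2* (0.65) was higher in the difference and not called against untreated cells.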

How the results depend on the processing

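The count of 2659 genes against untreated cells stayed within 1.5 times under the fit without the replicate block (2884), the compared libraries alone with the block (3592) or without it (2584), DESeq2 (2416), its size factors (2672), total counts only (3071), all genes with a count (3080), 1 CPM in 3 libraries (2607) and thinning (2535). It was 4435 with the deposited columns, which repeat the difference and mix it with the remainder, 1517 at an adjusted p of 0.01 and 820 among changes of 2-fold or more. Leaving out 1 mouse gave 1049 to 1988 genes, lowest without mouse 3. Leaving out 1 untreated library gave 1924 to 2354, and 1 difference library 1645 to 1923, lowest without that of mouse 2. The causes were not tested.

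The count of 556 genes between difference and remainder was 652 without the replicate block, 326 in the compared libraries alone with it, 422 without it, 706 with DESeq2, 1316 over all genes with a count, 0 with the deposited columns, 255 at an adjusted p of 0.01 and 169 among changes of 2-fold or more. Leaving out 1 mouse gave 89 (mouse 3) to 1253 (mouse 2), 1 remainder library 253 to 1677 (mouse 2), and 1 difference library 233 to 288. The causes were not tested.

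Of 363 named genes with a fit, 206 kept call and direction under every setting tried. Without the block, 3 lost and 3 gained the call, and without mouse 3, 64 lost it. Direction turned only with the deposited columns, for *Arg1* (5.997), *Cd40* (0.24), *Egr2* (0.499), *Flt1* (0.78), *Mrc1* (0.41) and *Ptgs1* (0.23), as log2 fold changes.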
